A study of Homo sapiens with 64 samples.

Results

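The genes described here encode heat shock proteins, endoplasmic reticulum (ER) chaperones and the parts of the unfolded protein response that control them. The 34 genes were chosen by name from the platform annotation, and each was represented by its probe set of highest mean over all arrays. Of these, 33 had a probe set of their own among 18132 genes tested. HSPA1A, the remaining one, was covered only by 4 probe sets shared with the near-identical HSPA1B. By role the measured genes were 14 ER chaperones and folding enzymes, 3 genes of ER-associated degradation, 3 sensors and transducers of the unfolded protein response, 11 cytosolic heat shock proteins and co-chaperones and 2 subunits of the mitochondrial chaperonin.

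They were measured in BEAS-2B, an immortalised human bronchial epithelial line, on 64 Affymetrix arrays. Cells kept overnight without serum received budesonide at 100 nM, formoterol at 10 nM or both drugs together (the combination), or were not treated, and RNA was taken at 1, 2, 6 and 18 h. Budesonide is an inhaled glucocorticoid that acts through the glucocorticoid receptor, and formoterol is a long-acting β2-adrenoceptor agonist that raises cyclic AMP. Each of the 16 groups had 4 arrays, which the submitters call independent determinations, all of 1 cell line. P-values measure only the spread between these samples. A single immortalised line limits the results to that line, and in bulk RNA fewer cells and less RNA per cell cannot be told apart.

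Chaperones bind proteins that are not folded, keep them from aggregating and release them in cycles driven by ATP. In the cytosol, HSP70 proteins work with J-domain co-chaperones and exchange factors and pass clients to HSP90, and the transcription factor HSF1 raises their genes when misfolded protein accumulates. In the ER, HSPA5 (BiP) and its co-chaperones do the same for secreted and membrane proteins. When they are overloaded, the sensors ERN1 (IRE1), ATF6 and EIF2AK3 (PERK) switch on the unfolded protein response, in part through XBP1. Proteins that cannot be folded are taken back to the cytosol for ER-associated degradation, in which HERPUD1, EDEM1 and SEL1L take part.

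The promoters of 5 members whose levels changed are printed to show the elements through which heat shock factors and the unfolded protein response are known to act. Each runs from 250 bases before to 50 after the RefSeq start (GRCh38.p14), 5′ to 3′ on the gene's strand. Capitals mark a heat shock element in CHORDC1 (chr11:90223000-90223299, minus strand) and DNAJA1 (chr9:33025023-33025322, plus strand). They mark an ER stress element in HSPA5 (chr9:125241294-125241593, minus strand), and an ER stress element II in SDF2L1 (chr22:21642052-21642351, plus strand) and HERPUD1 (chr16:56931892-56932191, plus strand). In CHORDC1 the capitals cover 3 overlapping matches.
CHORDC1: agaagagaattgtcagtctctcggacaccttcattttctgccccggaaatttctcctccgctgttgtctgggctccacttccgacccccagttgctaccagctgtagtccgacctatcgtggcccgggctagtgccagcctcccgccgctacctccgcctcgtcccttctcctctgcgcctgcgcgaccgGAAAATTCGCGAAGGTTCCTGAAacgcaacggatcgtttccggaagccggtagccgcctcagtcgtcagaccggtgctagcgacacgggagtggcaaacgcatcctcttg
DNAJA1: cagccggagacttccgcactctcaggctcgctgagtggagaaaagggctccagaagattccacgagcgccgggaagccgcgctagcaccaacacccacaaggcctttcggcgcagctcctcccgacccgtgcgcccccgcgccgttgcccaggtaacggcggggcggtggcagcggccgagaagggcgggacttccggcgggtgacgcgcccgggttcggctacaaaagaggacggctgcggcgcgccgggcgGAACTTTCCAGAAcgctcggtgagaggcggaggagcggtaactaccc
HSPA5: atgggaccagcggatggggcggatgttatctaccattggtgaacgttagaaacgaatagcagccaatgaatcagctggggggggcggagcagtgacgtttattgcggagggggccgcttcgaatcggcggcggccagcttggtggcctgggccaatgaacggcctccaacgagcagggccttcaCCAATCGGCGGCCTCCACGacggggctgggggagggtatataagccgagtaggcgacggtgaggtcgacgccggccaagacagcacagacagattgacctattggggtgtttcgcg
SDF2L1: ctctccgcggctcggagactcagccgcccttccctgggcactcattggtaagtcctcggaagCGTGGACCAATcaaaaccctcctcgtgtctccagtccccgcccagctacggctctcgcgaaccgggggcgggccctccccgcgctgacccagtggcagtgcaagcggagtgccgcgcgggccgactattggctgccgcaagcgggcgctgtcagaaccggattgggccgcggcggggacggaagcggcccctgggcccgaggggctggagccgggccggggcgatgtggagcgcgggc
HERPUD1: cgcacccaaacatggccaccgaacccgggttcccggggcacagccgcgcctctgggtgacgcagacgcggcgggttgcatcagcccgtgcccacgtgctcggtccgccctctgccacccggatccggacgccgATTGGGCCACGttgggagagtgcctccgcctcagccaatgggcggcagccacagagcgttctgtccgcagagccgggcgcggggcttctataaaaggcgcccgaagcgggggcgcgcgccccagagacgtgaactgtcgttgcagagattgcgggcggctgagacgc

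Of the 34 members, 32 had a promoter in the RefSeq table, with 42 windows of 300 bases in all, and both strands were searched. An ER stress element (CCAAT, 9 bases, CCACG) stood in the windows of 7 of these 32 genes, namely HSPA5, HSP90B1, CALR, CANX, PDIA6, CRELD2 and XBP1, against 0.0916% of 27305 genes in the table. An ER stress element II (ATTGG, 1 base, CCACG) stood in HYOU1, SDF2L1 and HERPUD1, against 0.0696% of all genes. A heat shock element (GAA, 2 bases, TTC, 2 bases, GAA, or its complement TTC, GAA, TTC with the same spacing) stood in HSPA8, DNAJA1, CHORDC1 and HSPD1, against 0.608%. The unfolded protein response element TGACGTG was found in HYOU1, where it overlapped an ER stress element II, against 2.4% of all genes. The cyclic AMP response element (TGAC directly followed by GTCA) was in no member's window, against 2.25% of all genes. A glucocorticoid response element (AGAACA, 3 bases, TGTTCT) was also in no member's window, against 0.00366%, and with 1 mismatch allowed it was in that of HSPA4, against 0.19%. These matches describe letters in the windows and no binding was measured.

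Values are log2 expression, whose array medians lay between 4.87 and 4.95. Levels of different probe sets were not set against each other, except against the lower quartile and the median of all probe sets. The epithelial genes KRT8 and KRT18 had medians of 9.35 and 11.1 over the 64 arrays. EPCAM, CDH1 and KRT19, which also mark epithelium, had medians of 2.47, 4.29 and 3.66, with EPCAM below 3.02, the lower quartile of all probe sets. VIM and FN1, which mark mesenchymal cells, had medians of 13.1 and 12.1. COL1A1, COL1A2, ACTA2 and DES, which also mark them, had 8.37, 4.62, 4.23 and 5.46. The leukocyte genes PTPRC, LYZ, CD3E and CD68 had medians of 1.98, 2.18, 3.48 and 5.77. The endothelial genes PECAM1, VWF, CDH5 and KDR had 4.23, 4.72, 2.90 and 4.27. The signal difference between the 3′ and 5′ actin probe sets, a sign of RNA quality, was highest in the replicate 1 array in 12 of the 16 groups and in the replicate 3 array in the other 4, and calls lost without those arrays are named beside the result. No member had a mean below the lower quartile.

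Against untreated cells, 20 of the 33 members passed the test at 1 or more of the 12 combinations of treatment and time. In single comparisons 0.998% to 21% of all genes were called. The share of all genes called at least once was not counted, so the 20 members have no like share to be set against. The test was limma's on all 18132 genes, called at a Benjamini-Hochberg adjusted p under 0.05, and log2 differences are given ± SE with n = 4 arrays per group. Early changes were few and mostly increases, in HERPUD1, BAG3, DNAJB1 and DNAJB9. Later changes were mostly decreases after budesonide or the combination, and the largest of them were in cytosolic chaperones.

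**Figure D1:**
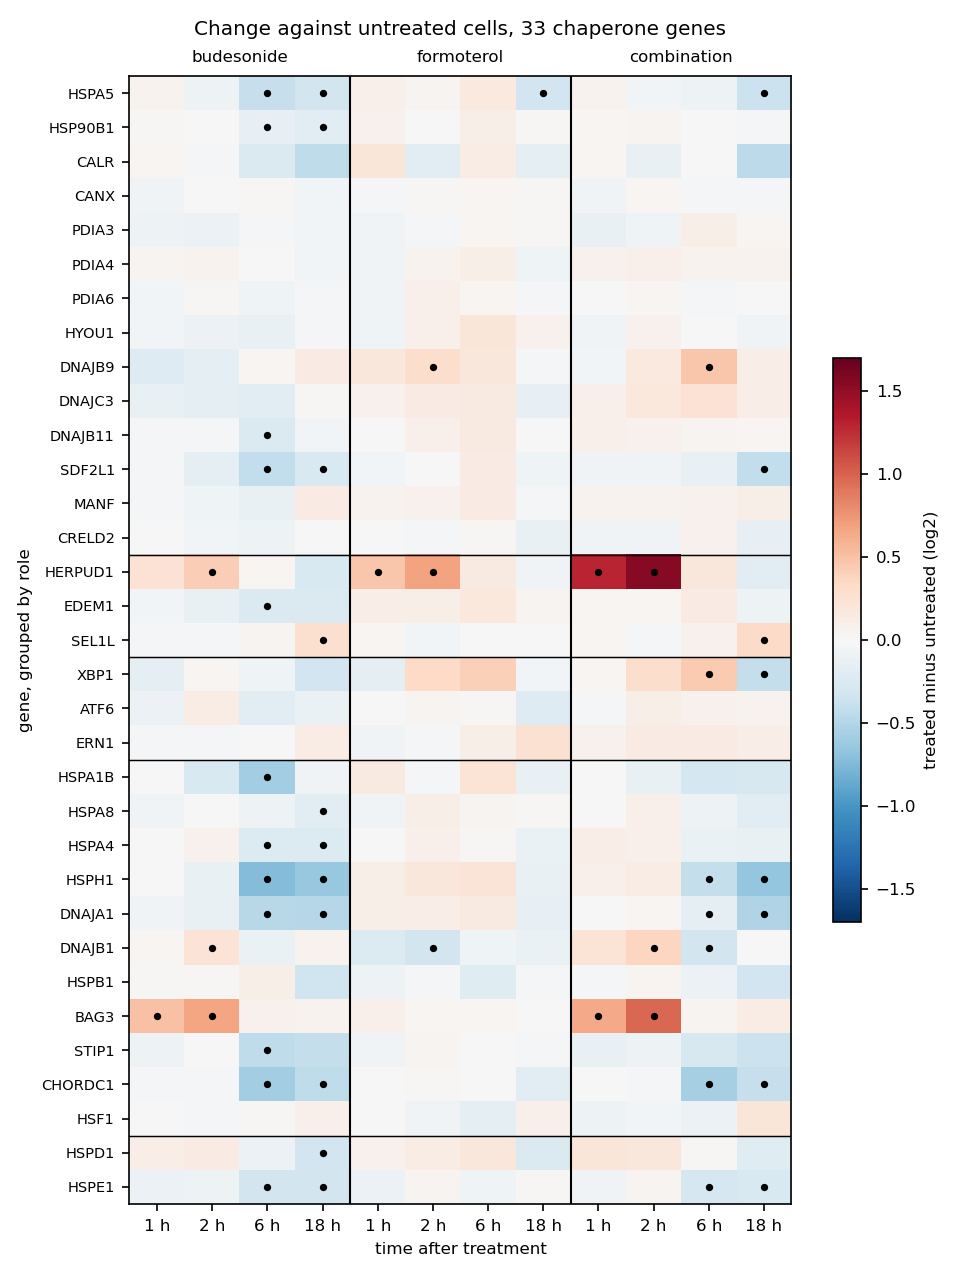
Log2 differences of 33 chaperone genes from untreated cells, by treatment and time, with genes in rows grouped by role (from top: ER chaperones, ER-associated degradation, unfolded protein response, cytosolic, mitochondrial) and a black dot where the adjusted p was under 0.05. HERPUD1 and BAG3 stand out at 1 and 2 h, and 12 genes were lower at 6 h with budesonide.

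At 1 h, 1 of 33 members was called with budesonide, where 0.998% of all genes were called. With formoterol it was also 1 (1.34% of all genes), and with the combination 2 (2.76%). At 2 h the counts were 3 with budesonide (3.94% of all genes), 3 with formoterol (4.6%) and 3 with the combination (9.49%). Each count at 2 h was 9.09% of members, which with the combination was close to the share of all genes. With a replicate block fitted separately at each time, formoterol had 2 called members at 1 h and 5 at 2 h. The shares of all genes with that block were not counted.

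HERPUD1, an ER membrane protein that helps to assemble the degradation complex, had the largest change of any member. At 1 h its level was 9.35, 9.72, 9.93 and 9.77 with the combination, 8.66, 8.98, 8.82 and 9.02 with formoterol and 8.53, 8.61, 8.52 and 8.91 with budesonide, against 8.25, 8.30, 8.43 and 8.61 in untreated cells. At 2 h it was 9.72, 9.66, 10.23 and 9.79 with the combination, 8.74, 8.84, 9.35 and 9.03 with formoterol and 8.47, 8.72, 8.84 and 8.86 with budesonide, against 8.05, 8.26, 8.49 and 8.43 in untreated cells. All 4 combination arrays lay above every other array at both times. HERPUD1 rose by 1.30 ± 0.13 with the combination at 1 h (adjusted p = 3.51e-12, limma) and by 1.54 ± 0.13 at 2 h (adjusted p = 2.33e-15, a 2.92-fold level). With formoterol it rose by 0.47 ± 0.13 at 1 h and by 0.68 ± 0.13 at 2 h (adjusted p = 0.0372 and 8.83e-05, limma), with no overlap with untreated arrays. With budesonide it rose by 0.41 ± 0.13 at 2 h (adjusted p = 0.0476, limma), with overlap, and had 0.24 ± 0.13 at 1 h, which did not pass.

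At 6 h HERPUD1 lay between 8.35 and 8.59 with the combination, 8.04 and 8.66 with formoterol and 8.15 and 8.49 with budesonide, against 8.02 to 8.44 in untreated cells. These ranges overlapped, and no change passed at 6 or 18 h without a replicate block. The combination exceeded budesonide by 1.05 ± 0.13 at 1 h and 1.13 ± 0.13 at 2 h, and formoterol by 0.83 ± 0.13 and 0.86 ± 0.13 (adjusted p at most 3.74e-06, limma). The drug interaction, which is the combination's change less the sum of the changes with each drug, was 0.58 ± 0.18 at 1 h and 0.45 ± 0.18 at 2 h and did not pass (adjusted p = 0.496 and 0.763, limma). The weaker calls depended on single arrays. The call at 1 h with formoterol was lost without 6 of 8 arrays in turn (change 0.42 to 0.49), namely untreated replicates 1, 2 and 3 and formoterol replicates 2, 3 and 4. The call at 2 h with budesonide was lost without 6 of 8 (0.33 to 0.46), namely untreated replicates 1, 2 and 4 and budesonide replicates 2, 3 and 4. All 4 probe sets of HERPUD1 were higher with the combination at 1 h, by 0.50 to 1.30, but at 2 h 1 of the 4 changed by -0.06. With budesonide at 2 h 1 of the 4 changed by -0.15, and their mean did not pass (0.28, adjusted p = 0.168).

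BAG3, a co-chaperone that binds HSP70 and directs clients to autophagy, rose in cells given budesonide, alone or in the combination. At 1 h its level was 9.68, 9.74, 9.72 and 9.34 with budesonide, 9.27, 9.29, 9.15 and 9.10 with formoterol and 9.83, 9.89, 9.79 and 9.51 with the combination, against 9.23, 9.16, 9.09 and 8.99 in untreated cells. At 2 h it was 9.90, 9.92, 9.77 and 9.66 with budesonide, 9.27, 9.27, 9.19 and 8.99 with formoterol and 10.23, 10.18, 10.11 and 9.98 with the combination, against 9.20, 9.27, 9.09 and 9.02 in untreated cells. At both times all budesonide and all combination arrays lay above all untreated arrays, whereas formoterol arrays overlapped with them. The rise with budesonide was 0.50 ± 0.09 at 1 h and 0.67 ± 0.09 at 2 h (adjusted p = 0.000201 and 1.5e-07, limma). With the combination it was 0.64 ± 0.09 and 0.98 ± 0.09 (adjusted p = 4.75e-07 and 3.86e-13), and with formoterol the differences were 0.09 ± 0.09 and 0.03 ± 0.09, which did not pass. At 2 h the combination exceeded budesonide by 0.31 ± 0.09 (adjusted p = 0.0322, limma), a call lost without 5 of 8 arrays in turn. At 6 h budesonide arrays lay between 9.27 and 9.38, against 8.99 to 9.38 in untreated cells, and BAG3 did not pass in any treatment at 6 or 18 h without a replicate block.

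DNAJB1, a J-domain co-chaperone that brings clients to HSP70, moved in opposite directions with the drugs at 2 h. Its level was 9.77, 9.88, 9.96 and 9.99 with budesonide, 9.34, 9.26, 9.57 and 9.23 with formoterol and 9.99, 9.94, 10.10 and 10.07 with the combination, against 9.62, 9.68, 9.84 and 9.50 in untreated cells. The combination arrays lay above all untreated arrays, whereas budesonide and formoterol arrays each overlapped with them. DNAJB1 rose by 0.24 ± 0.07 with budesonide (adjusted p = 0.0486, limma) and by 0.36 ± 0.07 with the combination (adjusted p = 0.000164), and fell by 0.31 ± 0.07 with formoterol (adjusted p = 0.00315). Its interaction of 0.44 ± 0.10 was the only one called among the members at 2 h (adjusted p = 0.02, limma), where 0.59% of all genes were called. At 1 h, where 0.171% of all genes were called, its interaction of 0.42 ± 0.10 did not pass (adjusted p = 0.0854). No member was called for an interaction at 1, 6 or 18 h by limma, where 0.722% of all genes were called at 6 h and 0.276% at 18 h, and 2, 0 and 5 members had an unadjusted p under 0.05 at 1, 6 and 18 h. The interaction at 2 h was lost without 5 of 16 arrays in turn (0.38 to 0.41), namely untreated replicate 3, budesonide replicate 1, formoterol replicates 2 and 4 and combination replicate 3. The rise with budesonide was lost without 6 of 8 (0.19 to 0.25), namely untreated replicates 1, 2 and 4 and budesonide replicates 2, 3 and 4. At 6 h DNAJB1 fell by 0.31 ± 0.07 with the combination (adjusted p = 0.000746), at 9.60, 9.51, 9.48 and 9.41 against 9.84, 9.90, 9.87 and 9.64 in untreated cells, without overlap.

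DNAJB9, an ER co-chaperone of HSPA5, was the other early call. At 2 h its level was 8.74, 8.88, 8.69 and 8.91 with formoterol, against 8.43, 8.56, 8.40 and 8.64 in untreated cells. The groups did not overlap, and the rise was 0.30 ± 0.08 (adjusted p = 0.0203, limma). It was lost without 4 of 8 arrays in turn (0.26 to 0.28), namely untreated replicates 1 and 3 and formoterol replicates 2 and 4. At 6 h DNAJB9 reached 9.10, 9.08, 9.10 and 9.14 with the combination, against 8.75, 8.48, 8.63 and 8.67 in untreated cells. All combination arrays were higher, by 0.47 ± 0.08 on average (adjusted p = 1.13e-05, limma).

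**Figure D2:**
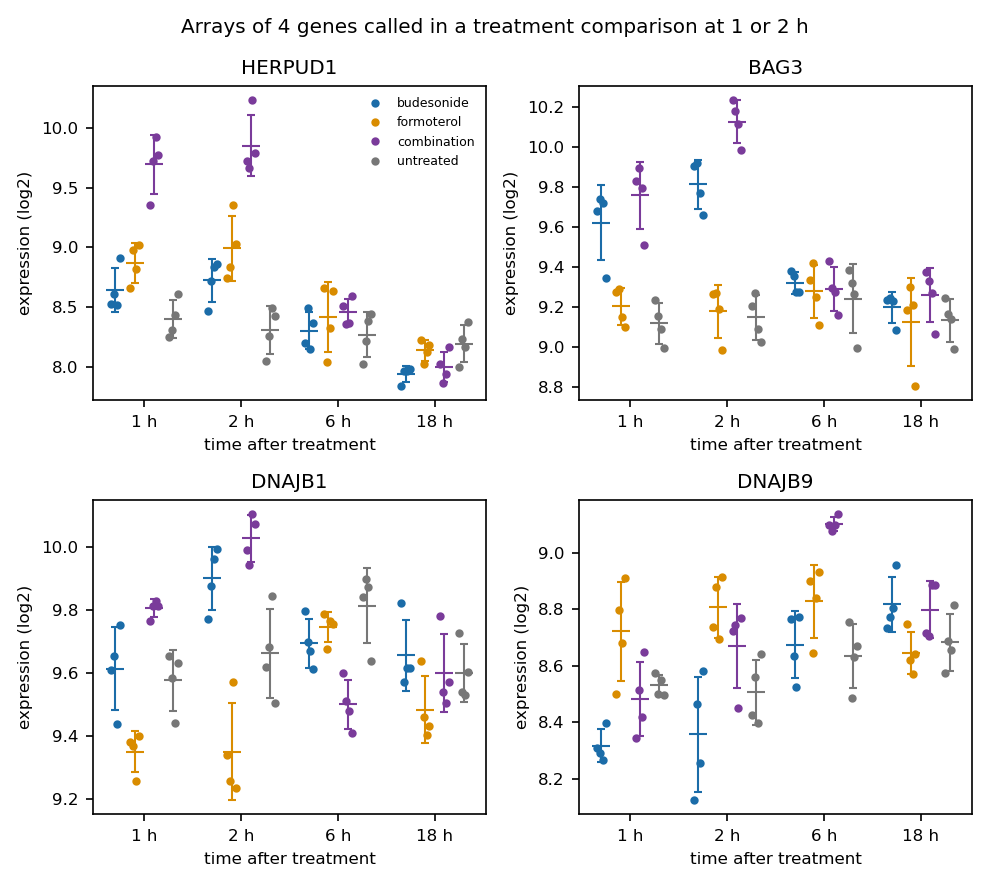
Log2 expression of HERPUD1, BAG3, DNAJB1 and DNAJB9 on each array (points) with group mean and SD (bars, n = 4), by time and treatment. HERPUD1 combination arrays at 2 h lie between 9.66 and 10.23, above all others, BAG3 is higher with budesonide and the combination at 1 and 2 h, and DNAJB1 at 2 h is lower with formoterol and higher with budesonide.

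At 6 h 12 of the 33 members fell with budesonide and none rose, where 14.2% of all genes were called and 8.12% were called lower. The members' median change was -0.12, against 0.03 over all genes, and 24 of the 33 were lower. The share of all genes with a lower mean was not counted. By role, 6 of 11 cytosolic genes, 4 of 14 ER chaperones, 1 of 3 degradation genes and 1 of 2 chaperonin subunits fell.

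HSPH1, an HSP110 protein that recharges HSP70 with ATP, fell most. At 6 h its level was 10.05, 9.92, 9.96 and 9.73 with budesonide, 10.76, 10.92, 11.14 and 10.70 with formoterol and 10.15, 10.37, 10.51 and 10.01 with the combination, against 10.65, 10.81, 10.79 and 10.38 in untreated cells. All budesonide arrays lay below all untreated arrays, and combination arrays overlapped with them. HSPH1 fell by 0.74 ± 0.11 with budesonide (adjusted p = 1.03e-07, limma, a 1.67-fold lower level) and by 0.40 ± 0.11 with the combination (adjusted p = 0.00329). Formoterol gave 0.22 ± 0.11, which did not pass without a replicate block. Without the array of highest actin difference in each group the combination's call was lost (-0.37, adjusted p = 0.0542). All 8 probe sets of HSPH1 were lower with budesonide at 6 h, by 0.74 to 1.11 in size.

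CHORDC1, a co-chaperone of HSP90, was 9.17, 9.25, 9.37 and 9.28 with budesonide at 6 h, 9.79, 9.77, 10.21 and 9.65 with formoterol and 9.14, 9.31, 9.58 and 9.19 with the combination, against 9.67, 10.19, 10.06 and 9.54 in untreated cells. Budesonide arrays lay below all untreated arrays, and the highest combination array lay just above the lowest untreated one. The falls were 0.60 ± 0.12 with budesonide and 0.56 ± 0.12 with the combination (adjusted p = 0.000155 and 0.000306, limma), and the difference with formoterol was -0.01 ± 0.12. All 8 of its probe sets were lower with budesonide.

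HSPA1B, the stress-inducible HSP70, was 9.37, 9.26, 9.20 and 8.99 with budesonide at 6 h, 10.06, 10.08, 10.23 and 9.71 with formoterol and 9.58, 9.49, 9.68 and 9.26 with the combination, against 9.74, 9.92, 10.02 and 9.50 in untreated cells. Budesonide arrays did not overlap with untreated arrays, and the fall was 0.59 ± 0.12 (adjusted p = 0.000246, limma). The combination gave -0.29 ± 0.12 and formoterol 0.23 ± 0.12, neither of which passed without a replicate block. With a block fitted separately at each time both passed (adjusted p = 0.000108 and 0.0074, limma). With a single block the combination's change passed (adjusted p = 0.041, limma). The 4 probe sets shared by HSPA1A and HSPA1B changed by -0.38 to -0.61 with budesonide at 6 h, and the shared sequence means that the probe set assigned to HSPA1B alone may also read HSPA1A. At 2 h the replicate 3 array was the lowest in all 4 groups, at 8.73 with budesonide, 8.97 with formoterol and 8.76 with the combination, against 8.81 in untreated cells.

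DNAJA1, another J-domain partner of HSP70, was 11.30, 11.23, 11.25 and 11.10 with budesonide at 6 h and 11.54, 11.49, 11.51 and 11.53 with the combination, against 11.80, 11.67, 11.68 and 11.61 in untreated cells. Neither treated group overlapped with untreated cells. It fell by 0.47 ± 0.05 with budesonide (adjusted p = 1.33e-10, limma) and by 0.17 ± 0.05 with the combination (adjusted p = 0.0155). The combination's call was lost without untreated replicate 1 (-0.13, adjusted p = 0.0977), the untreated array of highest actin difference at 6 h, and without that array in each group (-0.14, adjusted p = 0.0865). STIP1, which joins HSP70 to HSP90, fell by 0.43 ± 0.15 with budesonide and HSPA4, an HSP110 protein, by 0.23 ± 0.07 (adjusted p = 0.0486 and 0.0203, limma). STIP1's call was lost without 6 of 8 arrays in turn (-0.31 to -0.43), namely untreated replicates 2, 3 and 4 and budesonide replicates 1, 2 and 4. HSPA4's was lost without 3, namely untreated replicate 3 and budesonide replicates 2 and 4 (-0.19 to -0.22). HSPE1, the mitochondrial co-chaperonin, fell by 0.32 ± 0.09 with budesonide and by 0.28 ± 0.09 with the combination (adjusted p = 0.0091 and 0.0208), with overlap in both. These calls were lost without untreated replicate 2, and without replicate 4 of the treated group (-0.25 and -0.23 with budesonide, -0.21 and -0.20 with the combination).

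**Figure D3:**
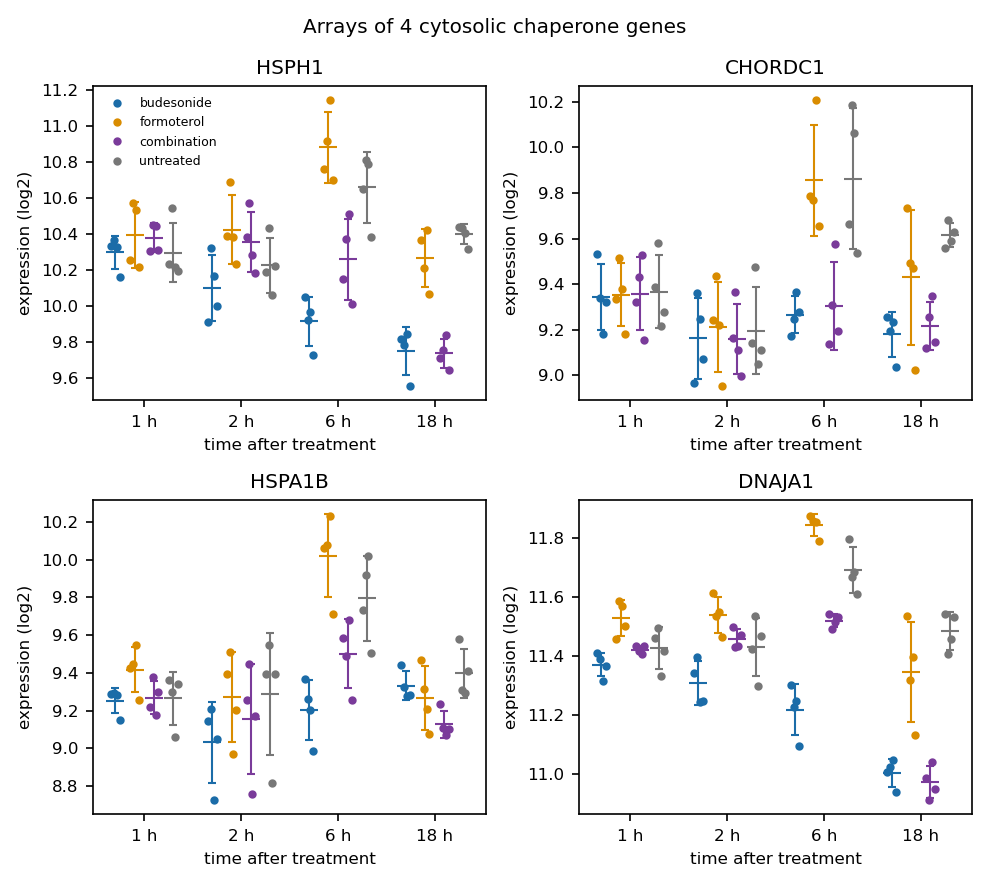
Log2 expression of HSPH1, CHORDC1, HSPA1B and DNAJA1 on each array (points) with group mean and SD (bars, n = 4), by time and treatment. At 6 h all budesonide arrays lie below all untreated arrays for the 4 genes, and the untreated level is itself higher at 6 h than at 2 h.

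Of the ER chaperones, HSPA5, HSP90B1, DNAJB11 and SDF2L1 fell with budesonide at 6 h. HSPA5, the central HSP70 of the ER, was 11.61, 11.59, 11.76 and 11.58 with budesonide, 12.24, 12.03, 12.22 and 12.23 with formoterol and 11.89, 11.85, 12.02 and 11.95 with the combination, against 12.03, 11.98, 12.10 and 11.97 in untreated cells. The budesonide arrays stood below all others. The fall was 0.39 ± 0.07 (adjusted p = 4.36e-06, limma), and the other treatments did not pass at 6 h without a replicate block. All 6 HSPA5 probe sets were lower, but their mean did not pass (-0.59, adjusted p = 0.135). SDF2L1, an ER protein that works with HSPA5, was 8.60, 8.63, 8.35 and 8.37 with budesonide, against 9.16, 8.80, 8.86 and 8.82 in untreated cells, without overlap. It fell by 0.42 ± 0.08 (adjusted p = 8.24e-05, limma). DNAJB11, an ER J-domain protein, fell by 0.25 ± 0.07, HSP90B1, the HSP90 of the ER, by 0.14 ± 0.04, and EDEM1, which selects glycoproteins for degradation, by 0.25 ± 0.09 (adjusted p = 0.00643, 0.00948 and 0.0498). The groups overlapped for all 3. EDEM1's call was lost without 6 of 8 arrays in turn (-0.19 to -0.27), namely untreated replicates 1, 3 and 4 and budesonide replicates 2, 3 and 4. DNAJB11's was lost without untreated replicate 2 (-0.20) and HSP90B1's without budesonide replicate 2 (-0.12). Without the array of highest actin difference in each group, HSP90B1 (-0.14) and EDEM1 (-0.26) did not pass and 10 members did. Of 5 EDEM1 probe sets 2 were higher and 3 lower (-0.25 to 0.15), and their mean did not pass (-0.04, adjusted p = 0.732). The mean of the 5 epithelial marker genes at 6 h lay between 5.98 and 6.07 with budesonide, against 6.14 to 6.32 in untreated cells. That of the 6 mesenchymal genes lay between 7.99 and 8.13, against 7.93 to 8.07. The 4 endothelial genes lay between 4.16 and 4.41, against 3.90 to 4.19. The part of any of these in the members' changes was not tested.

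The combination at 6 h called 7 members, 2 higher and 5 lower, where 18.6% of all genes were called and 9.95% were called lower. The 7 were 21.2% of members, close to the share of all genes. The 5 lower genes were HSPH1, DNAJA1, DNAJB1, CHORDC1 and HSPE1, of which 4 are cytosolic, and none of the 14 ER chaperones was called lower. Of these 14, 4 had a lower mean than in untreated cells and 10 a higher one. All 6 HSPA5 probe sets were lower with the combination, by -0.48 to -0.05. The mean of the 5 epithelial marker genes lay between 5.83 and 6.08 with the combination, against 6.14 to 6.32 in untreated cells. That of the 6 mesenchymal genes lay between 7.81 and 8.13, against 7.93 to 8.07. The 4 endothelial genes lay between 4.03 and 4.38, against 3.90 to 4.19. The part of any of these in the members' changes was not tested. DNAJB9 and XBP1, the transcription factor of the unfolded protein response, rose. XBP1 was 8.41, 8.83, 9.04 and 8.85 with the combination, 8.53, 8.42, 9.02 and 8.98 with formoterol and 7.87, 8.43, 8.39 and 8.38 with budesonide, against 7.74, 8.48, 8.66 and 8.46 in untreated cells. Replicate 1 was low in untreated and budesonide cells, and all groups overlapped. The rise with the combination was 0.45 ± 0.15 (adjusted p = 0.0254, limma), and 0.40 ± 0.15 with formoterol did not pass without a replicate block. It was lost without 4 of 8 arrays in turn, with 0.25 without untreated replicate 1 and 0.36 to 0.43 without combination replicates 2, 3 or 4. With a fit of the compared arrays alone, 6 members were called with budesonide and 4 with the combination at 6 h.

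Set against budesonide alone at 6 h, 11 members were higher in the combination and none lower, where 6.72% of all genes were called and 3.91% were called higher. These included 7 of the 14 ER chaperones, namely HSPA5 (0.30 ± 0.07), HSP90B1 (0.15 ± 0.04), DNAJB9 (0.43 ± 0.08), DNAJC3 (0.42 ± 0.10), DNAJB11 (0.29 ± 0.07), SDF2L1 (0.29 ± 0.08) and MANF (0.19 ± 0.06). DNAJC3 is an ER J-domain protein that also inhibits EIF2AK3, and MANF is a secreted ER stress protein. EDEM1 (0.39 ± 0.09), XBP1 (0.52 ± 0.15), HSPH1 (0.34 ± 0.11) and DNAJA1 (0.30 ± 0.05) completed the 11 (adjusted p at most 0.0387, limma). The members' median difference was 0.15, against -0.03 over all genes. This comparison and that of budesonide with untreated cells share the budesonide arrays. The number called lay between 7 and 9 when arrays were left out in turn. Calls were lost for MANF without budesonide replicates 1 or 4 or combination replicates 1, 2 or 3, and for HSPH1 without budesonide replicates 2, 3 or 4 or combination replicates 2 or 3. They were lost for XBP1 without budesonide replicate 1 or combination replicates 2, 3 or 4, and for HSP90B1 without replicates 2 or 4 of budesonide or 3 or 4 of the combination. SDF2L1 was lost without budesonide replicates 3 or 4 or combination replicate 1, and DNAJC3 without combination replicate 3. The differences without these arrays ran from 0.16 to 0.20 for MANF, 0.26 to 0.36 for HSPH1, 0.38 to 0.50 for XBP1, 0.12 to 0.14 for HSP90B1 and 0.25 to 0.26 for SDF2L1, with 0.34 for DNAJC3. The call of MANF was also lost without the array of highest actin difference in each group (0.16, adjusted p = 0.255).

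With formoterol and no replicate block, no member passed against untreated cells at 6 h by limma, where 4.81% of all genes were called. There were 8 members with an unadjusted p under 0.05. With a block fitted separately at each time 9 passed. HSPB1 was lower, and HSPA5, HSP90B1, DNAJB9, MANF, XBP1, HSPA1B, HSPH1 and DNAJA1 were higher. With a single block 2 passed, XBP1 and DNAJA1, both higher. Shares of all genes were not counted with either block. The difference was positive in 28 of 33 members, including all 14 ER chaperones, whose differences ran from 0.01 to 0.20. All of these differences come from the same arrays, so the genes do not count as replicates. The share of all genes with a positive difference was not counted. The members' median difference was 0.10, against -0.01 over all genes.

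**Figure D4:**
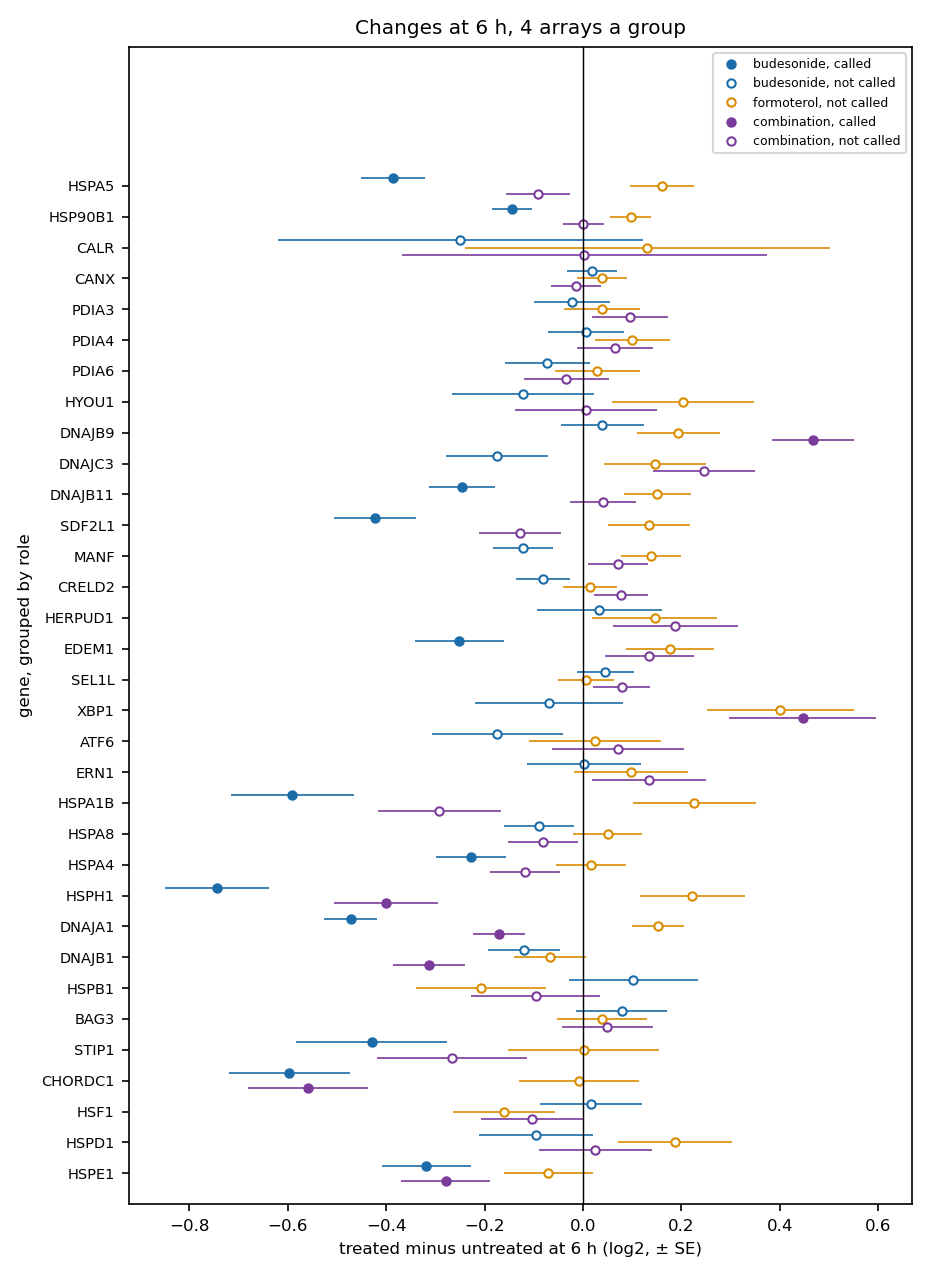
Log2 differences from untreated cells at 6 h for 33 genes (points, bars ± SE, 4 arrays a group), with filled points where the adjusted p was under 0.05. Budesonide points lie lowest for HSPA5, SDF2L1 and HSPH1. Formoterol points lie right of 0 for all 14 ER chaperones, none of them called. Combination points lie between those of the single drugs for HSPA5 and DNAJA1.

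The combination at 6 h called 8 members against formoterol alone, 1 higher and 7 lower, where 13.4% of all genes were called and 7.85% were called lower. The lower genes were HSPA5 (-0.25 ± 0.07), SDF2L1 (-0.26 ± 0.08), HSPA1B (-0.52 ± 0.12), HSPH1 (-0.62 ± 0.11), DNAJA1 (-0.32 ± 0.05), DNAJB1 (-0.25 ± 0.07) and CHORDC1 (-0.55 ± 0.12), and DNAJB9 was higher (0.27 ± 0.08). SDF2L1 was lost without formoterol replicates 1 or 4 or combination replicates 2, 3 or 4 (-0.16 to -0.26), DNAJB9 without formoterol replicate 2 (0.21) and DNAJB1 without combination replicate 4 (-0.22). SDF2L1 was also lost without the array of highest actin difference in each group (-0.19, adjusted p = 0.17). At 1 h the combination called HERPUD1, DNAJB1 and BAG3 against formoterol, 3 members where 1.27% of all genes were called, and at 2 h the same 3, where 4.15% were called. Against budesonide it called 1 member at 1 h, HERPUD1, where 1.47% of all genes were called. At 2 h it called 4, namely DNAJB9, DNAJC3, HERPUD1 and BAG3, where 4.38% were called. With a replicate block fitted separately at each time it called 8, and the share of all genes with that block was not counted. Leaving out arrays in turn gave 1 to 3 members at 2 h. HERPUD1 was called each time. DNAJB9 was lost without budesonide replicates 1 or 3 or combination replicates 2 or 4 (0.24 to 0.29), BAG3 without budesonide replicates 3 or 4 or combination replicates 1, 2 or 3 (0.26 to 0.32), and DNAJC3 without any array but budesonide replicate 3 (0.27 to 0.36). Without the array of highest actin difference in each group BAG3 (0.30) and DNAJC3 (0.36) did not pass.

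The levels of these genes in untreated cells were not constant. At 6 h against 1 h, 4 members were higher and none lower, where 0.21% of all genes were called and 0.0662% were called higher. These were HSPA5 (0.41 ± 0.07), MANF (0.31 ± 0.06), HSPA1B (0.53 ± 0.12) and DNAJA1 (0.26 ± 0.05), each without overlap. At 6 h against 2 h, 6 were higher, where 0.552% of all genes were called and 0.364% higher, and HSPH1 (0.43 ± 0.11) and CHORDC1 (0.67 ± 0.12) joined them. HSPH1 and HSPA1B overlapped between 6 and 2 h, and the other 4 did not. At 2 h against 1 h limma called no member, where 0.0165% of all genes were called and 0 members had an unadjusted p under 0.05. At 18 h against 1 h it called 1, HSP90B1 (0.20 ± 0.04), where 0.364% were called. The contrasts with 2 h and 6 h were added after the data were seen. Leaving out arrays in turn gave 1 to 5 calls at 6 h against 1 h, 1 to 6 at 6 h against 2 h and 0 to 1 at 18 h against 1 h. At 6 h against 1 h HSPA1B was lost without any of 7 arrays, all but 6 h replicate 4 (0.45 to 0.56), MANF without 1 h replicates 3 or 4 or 6 h replicate 2 (0.27 to 0.28) and DNAJA1 without 1 h replicate 3 or 6 h replicate 1 (0.23). At 6 h against 2 h the 2 h replicate 3 array ended 5 of the 6 calls, with HSPA5 at 0.29 and HSPA1B at 0.35 without it. MANF (0.22 to 0.28) and HSPH1 (0.38 to 0.44) were lost without 2 h replicates 1, 3 or 4 or 6 h replicates 1, 2 or 3, HSPA1B also without 2 h replicate 4 or 6 h replicates 1, 2 or 3 (up to 0.54), and DNAJA1 also without 6 h replicate 1 (0.22). CHORDC1 passed whichever array was left out. HSP90B1 at 18 h against 1 h was lost without 1 h replicate 3 or 18 h replicate 1 (0.16 to 0.20). The fit of the compared arrays alone gave 1 call at 6 h against 1 h and 0 at 6 h against 2 h, and without the array of highest actin difference in each group 6 h against 2 h also gave 0, DNAJA1 at 6 h against 1 h did not pass (0.24), nor did HSP90B1 at 18 h against 1 h (0.18).

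At 18 h budesonide called 11 members, 1 higher and 10 lower, where 18.3% of all genes were called and 9.78% were called lower. The combination called 8, 1 higher and 7 lower, where 21% of all genes were called and 10.7% were called lower. With a replicate block fitted separately at each time the counts were 18 and 17, and with a single replicate block 16 and 14. The shares of all genes are those without a block, and they were not counted with either block. Same-numbered arrays deviated together in both comparisons. With the block at each time the members added with budesonide were CALR, HSPB1, STIP1, EDEM1, XBP1 and HERPUD1, all lower, and MANF, higher. With the combination they were CALR, HSPB1, STIP1, HSPA8, HSPA1B, CRELD2 and HSPD1, all lower, and BAG3 and HSF1, higher. The members' median changes were -0.12 and -0.08, against 0.03 for both over all genes. The share called with the combination, 24.2% of members, was close to that of all genes.

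HSPH1 at 18 h was 9.81, 9.78, 9.84 and 9.55 with budesonide, 10.37, 10.21, 10.42 and 10.06 with formoterol and 9.71, 9.75, 9.84 and 9.64 with the combination, against 10.44, 10.43, 10.41 and 10.32 in untreated cells. Budesonide and combination arrays lay below all untreated arrays. The falls were 0.65 ± 0.11 and 0.66 ± 0.11 (adjusted p = 1.8e-06 and 1e-06, limma). DNAJA1 fell by 0.48 ± 0.05 and 0.51 ± 0.05 with budesonide and the combination (adjusted p = 6.62e-11 and 6.53e-12). CHORDC1 was 9.25, 9.19, 9.24 and 9.04 with budesonide and 9.12, 9.26, 9.35 and 9.15 with the combination, against 9.56, 9.68, 9.59 and 9.63 in untreated cells. Neither treated group overlapped with untreated cells, and the falls were 0.43 ± 0.12 and 0.40 ± 0.12 (adjusted p = 0.0064 and 0.0122). The combination's call on CHORDC1 was lost without the array of highest actin difference in each group (-0.38, adjusted p = 0.0653). BAG3 and HSPA1B did not pass at 18 h without the block, with HSPA1B at -0.07 ± 0.12 with budesonide and -0.27 ± 0.12 with the combination.

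In the ER group at 18 h, HSPA5 was 11.41, 11.36, 11.38 and 11.22 with budesonide, 11.52, 11.28, 11.39 and 11.11 with formoterol and 11.38, 11.31, 11.24 and 11.25 with the combination, against 11.70, 11.61, 11.64 and 11.67 in untreated cells. Every treated array lay below every untreated array. The falls were 0.31 ± 0.07, 0.33 ± 0.07 and 0.36 ± 0.07 (adjusted p = 0.000174, 0.00153 and 1.05e-05, limma). HSPA5 was the 1 member called with formoterol at 18 h, where 1.11% of all genes were called, and that call was lost without formoterol replicate 4 (-0.26, adjusted p = 0.0515). With all 6 probe sets averaged, HSPA5 did not pass in any treatment at 18 h (-0.42 to -0.53). SDF2L1 was 8.36, 8.42, 8.21 and 8.49 with budesonide and 8.25, 8.14, 8.40 and 8.09 with the combination, against 8.73, 8.68, 8.58 and 8.55 in untreated cells. Neither treated group overlapped with them, and the falls were 0.26 ± 0.08 and 0.41 ± 0.08 (adjusted p = 0.017 and 7.98e-05, limma). With budesonide the SDF2L1 call was lost without untreated replicate 1 (-0.23) or budesonide replicate 3 (-0.21), and without the array of highest actin difference in each group (-0.23).

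SEL1L, the scaffold of the membrane ubiquitin ligase of ER-associated degradation, was the 1 member that rose at 18 h. It was 9.84, 9.83, 9.94 and 9.78 with budesonide and 9.93, 9.91, 9.91 and 9.88 with the combination, against 9.60, 9.57, 9.57 and 9.57 in untreated cells. The groups did not overlap, and the rises were 0.27 ± 0.06 and 0.33 ± 0.06 (adjusted p = 0.000201 and 5.65e-06, limma). Of its 4 probe sets, 1 changed the other way, by -0.07 and -0.03. HSP90B1 fell by 0.19 ± 0.04 with budesonide (adjusted p = 0.000237), all arrays below untreated, and stood 0.17 ± 0.04 higher in the combination than in budesonide cells. That was the 1 member called between these groups at 18 h, where 0.651% of all genes were called. It was lost without budesonide replicates 2 or 4 or combination replicates 1, 2 or 3 (0.13 to 0.17), and without the array of highest actin difference in each group (0.18). XBP1 fell by 0.40 ± 0.15 with the combination (adjusted p = 0.048), with overlap, and the call was lost without 7 of 8 arrays in turn (-0.32 to -0.44).

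The remaining falls at 18 h were in HSPA8, the constitutive HSP70 (-0.19 ± 0.07), HSPA4 (-0.24 ± 0.07) and the chaperonin subunits HSPD1 (-0.33 ± 0.12) and HSPE1 (-0.32 ± 0.09) with budesonide, and in HSPE1 (-0.26 ± 0.09) with the combination (adjusted p at most 0.0482, limma). HSPD1's call was lost without 4 of 8 arrays in turn (-0.24 to -0.34), namely untreated replicates 1 and 2 and budesonide replicates 1 and 4, and without the array of highest actin difference in each group (-0.30). HSPA8's was lost without 6 (-0.15 to -0.20), all but untreated replicate 1 and budesonide replicate 3, HSPA4's without budesonide replicate 2 (-0.21), and HSPE1's with the combination without untreated replicate 2 or combination replicates 2 or 4 (-0.22 to -0.26). Against formoterol the combination at 18 h called 6 members, with SEL1L higher and SDF2L1, HSPA8, HSPH1, DNAJA1 and HSPE1 lower, where 17.6% of all genes were called. The 6 were 18.2% of members, close to the share of all genes. HSPA8 was lost without 6 of 8 arrays, all but replicate 3 of each group (-0.18 to -0.21), and HSPE1 without formoterol replicate 2 or combination replicate 4 (-0.26 to -0.27). Both were lost without the array of highest actin difference in each group (-0.20 for HSPA8 and -0.31 for HSPE1). The mean of the 5 epithelial marker genes at 18 h lay between 5.56 and 5.73 with budesonide and 5.46 and 5.61 with the combination, against 5.97 to 6.24 in untreated cells. The 4 leukocyte genes lay between 3.20 and 3.35 and between 3.16 and 3.33, against 3.18 to 3.41. The part of either in the members' changes was not tested.

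**Figure D5:**
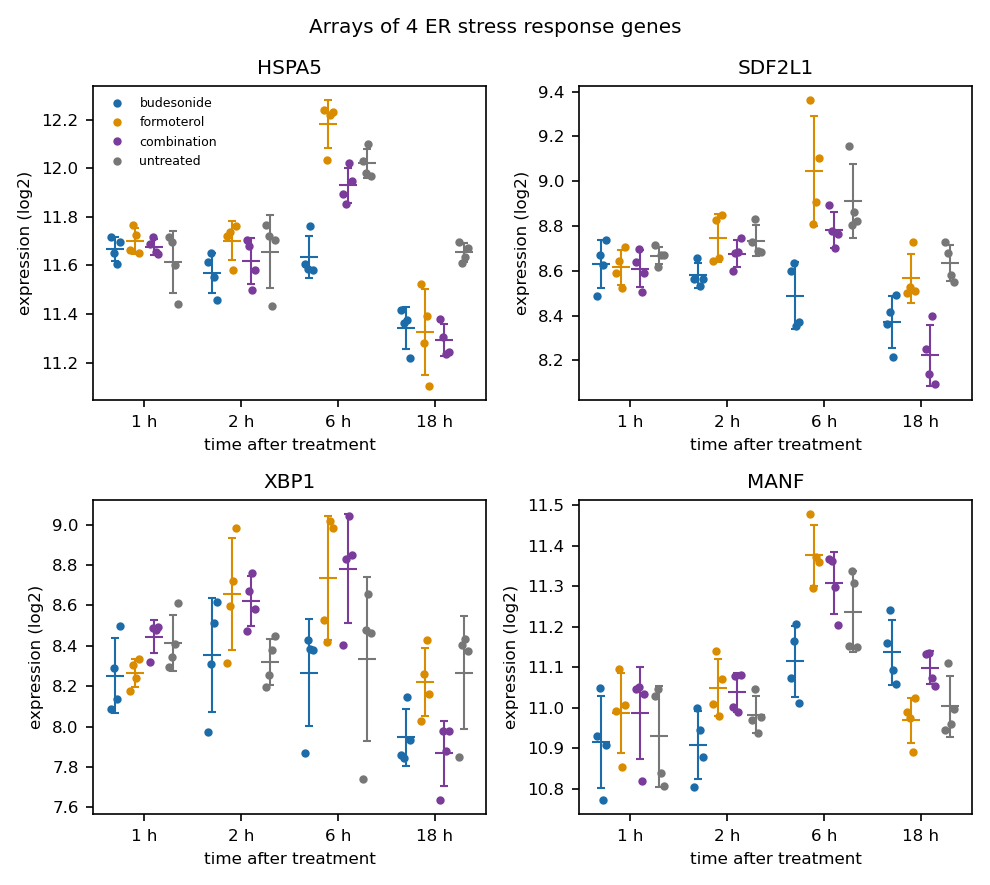
Log2 expression of HSPA5, SDF2L1, XBP1 and MANF on each array (points) with group mean and SD (bars, n = 4), by time and treatment. HSPA5 is lowest with budesonide at 6 h, and at 18 h all treated arrays lie below all untreated arrays.

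Whether a treatment's effect differed between the 4 times was tested with limma's F test. With budesonide 9 of 33 members passed, where 12.7% of all genes passed, with formoterol 3, where 4.51% passed, and with the combination 11, where 22.6% passed. For formoterol these were HSPA5, HERPUD1 and DNAJA1. For budesonide they were HSPA5, HSP90B1, HERPUD1, SEL1L, HSPA4, HSPH1, DNAJA1, BAG3 and CHORDC1. For the combination they were HSPA5, DNAJB9, SDF2L1, HERPUD1, SEL1L, XBP1, HSPH1, DNAJA1, DNAJB1, BAG3 and CHORDC1, of which HERPUD1 had the lowest adjusted p (4.25e-13).

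The 13 members that passed in none of the 12 comparisons without a replicate block were CALR, CANX, PDIA3, PDIA4, PDIA6, HYOU1, DNAJC3, MANF, CRELD2, ATF6, ERN1, HSPB1 and HSF1. Their differences ran from -0.45 to 0.25. CANX and the disulfide isomerases PDIA3, PDIA4 and PDIA6, which fold glycoproteins and form disulfide bonds, stayed between -0.12 and 0.10. CALR, a lectin chaperone and the partner of CANX, was 6.16, 6.80, 6.81 and 6.73 with budesonide at 18 h and 6.23, 6.83, 6.85 and 6.52 with the combination, against 6.53, 7.19, 7.33 and 7.17 in untreated cells. The groups overlapped, but in each pair of same-numbered arrays the treated array was the lower. The differences were -0.43 ± 0.37 and -0.45 ± 0.37 and did not pass (adjusted p = 0.51 and 0.482, limma). With a replicate block fitted separately at each time both passed, at -0.43 ± 0.10 and -0.45 ± 0.10 (adjusted p = 0.000363 and 0.000184), and with a single block neither did (0.438 and 0.409). At 2 h the replicate 3 arrays of CALR stood far below the others, at 5.08 with budesonide, 4.45 with formoterol and 4.92 with the combination, against 5.29 in untreated cells, where the other arrays lay between 6.80 and 7.18. These arrays enter the spread that all times share. HSPB1, a small heat shock protein, gave -0.34 ± 0.13 and -0.33 ± 0.13 at 18 h with budesonide and the combination (adjusted p = 0.0673 and 0.0661, limma), and passed with either block (adjusted p at most 0.00474). HSF1, the activator of the cytosolic genes, ran from -0.16 to 0.20, and the sensors ATF6 and ERN1 from -0.21 to 0.12 and from -0.06 to 0.25. ERN1 had a mean level of 3.98, below the median of all probe sets.

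Within groups the median SD of the members was 0.13, against 0.16 over all genes, and 10 of the 33 lay above that median of all genes. The SD ran from 0.05 in HSP90B1 to 0.57 in CALR. Some pairs varied together from array to array, and others in opposite directions. Over the 64 arrays, deviations from the group means of HSPH1 and CHORDC1 had a Pearson r of 0.81, those of XBP1 and STIP1 0.81 and those of PDIA3 and XBP1 0.72. The lowest r was -0.82, for PDIA6 and BAG3, followed by -0.71 for XBP1 and HSF1 and -0.68 for CALR and HYOU1. The median over all 528 pairs was 0.06. Arrays of 1 replicate number and their normalization are shared by all these values, and no test was made.

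The same pathways hold 78 further genes on lists drawn up with earlier results of these data known, of which 74 were measured. Of these, 1 rose and 1 fell at 1 h with budesonide, and 1 and 1 at 2 h. At 6 h 3 rose and 9 fell, and at 18 h 5 and 15. Of all genes 0.998%, 3.94%, 14.2% and 18.3% were called with budesonide at these times. With formoterol 1 rose and 1 fell at 1 h, 4 and 1 at 2 h, 11 and 3 at 6 h and 1 and 0 at 18 h. The shares of all genes called were 1.34%, 4.6%, 4.81% and 1.11%. With the combination 4 rose and 3 fell at 1 h, 6 and 5 at 2 h, 13 and 10 at 6 h and 11 and 15 at 18 h. The shares of all genes called were 2.76%, 9.49%, 18.6% and 21%. At 18 h with budesonide, 9 of 23 other cytosolic chaperones fell and 1 rose, and 0 of 15 other ER folding factors fell and 1 rose, where 18.3% of all genes were called and 9.78% were called lower. At 6 h with budesonide, 5 of the 23 fell and 1 rose, and 2 of the 15 fell and 1 rose. There 14.2% of all genes were called and 8.12% were called lower. These lists and times are only a part of those counted. At 6 h with formoterol, 5 of 11 other degradation factors rose and 1 fell, where 4.81% of all genes were called.

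Of these genes 3 changed at least 2-fold without overlap. DNAJB4, a J-domain co-chaperone of HSP70, was 10.44, 10.58, 10.82 and 10.56 with budesonide at 1 h, against 9.36, 9.59, 9.71 and 9.56 in untreated cells. It rose by 1.05 ± 0.10 at 1 h, 1.59 ± 0.10 at 2 h and 1.12 ± 0.10 at 6 h with budesonide, and by 1.03 ± 0.10 at 1 h and 1.51 ± 0.10 at 2 h with the combination (adjusted p at most 7.34e-12, limma). At 6 h the DNAJB4 mean was 10.66 with the combination, against 9.74 in untreated cells. At 18 h it was 10.21 with budesonide and 10.55 with the combination, against 9.57. These groups did not overlap with untreated cells either. EIF2AK3, the ER sensor that slows translation, was 9.99, 10.08, 10.10 and 9.70 with the combination at 2 h, against 8.43, 8.44, 8.27 and 8.35 in untreated cells. EIF2AK3 rose by 1.60 ± 0.10 (adjusted p = 4.37e-20, limma), and its means with budesonide and formoterol at 2 h were 8.59 and 8.66. Its interaction at 2 h was 1.09 ± 0.14 and passed. The EIF2AK3 means with the combination at 1, 6 and 18 h were 9.39, 9.15 and 8.52, against 8.45, 8.64 and 8.78 in untreated cells. HSPA4L, an HSP110 protein related to HSPH1, was 5.58, 5.41, 5.73 and 5.66 with budesonide at 6 h, against 6.71, 6.94, 7.09 and 6.92 in untreated cells. It fell by 1.32 ± 0.13 with budesonide and by 1.17 ± 0.13 with the combination (adjusted p = 3.89e-12 and 1.36e-10, limma), without overlap. At 18 h the HSPA4L means were 5.98 with budesonide and 6.01 with the combination, against 6.72 in untreated cells, also without overlap.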

How the data were processed

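Expression was measured in BEAS-2B cells on 64 Affymetrix arrays, with 4 arrays in each of 16 groups. The authors deposited log2 values for each probe set, made with RMA per the submitters' processing notes. Whether RMA was run on all arrays at once is not stated in the sources used here. Probe sets were named from the platform annotation, those of several genes were set aside, and each of 18132 genes was represented by its probe set of highest mean. A linear model with 16 group means was fitted with limma 3.58.1 in R 4.3.3 (lmFit and eBayes with a trend, 48 residual degrees of freedom). P-values were adjusted by Benjamini-Hochberg over all genes and called under 0.05. Figures used Python 3.11.15, pandas 2.3.3 and matplotlib 3.10.9. The members, the lists of other genes and the tests were chosen with earlier results of these data known. Members called with a change of at least 1.5-fold and no overlap of arrays were described with all arrays, other called members with their change, and other pathway genes were named from a log2 change of 1 without overlap. Further called members are given with their arrays where a comparison turns on them, a choice made after their values were seen. The contrasts of untreated cells with 2 h and 6 h were added after the data were seen. The labels give replicate numbers 1 to 4 in every group, and same-numbered arrays deviated together, with every pair's correlation over 0.1, in 6 of the 12 comparisons with untreated cells. The mean correlation of the 4 pairs was positive in all 12, from 0.12 to 0.44, and the reported fit did not use the pairing. The alternatives were the replicate block, overall and within each time, centring, quantile normalization, averaged probe sets, genes of low level left out, the compared arrays alone, and arrays left out. The fit was tested on simulated data. Precision is limited by the number of arrays.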

Additional observations from a re-analysis of the deposited data

Results flagged for a closer look

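The effect of a treatment differed between the 4 times for 4 of the members described in full, by limma's F test adjusted over all genes. For HERPUD1 the adjusted p was 0.0285 with budesonide, 0.0185 with formoterol and 4.25e-13 with the combination, with its rise at 1 and 2 h. For BAG3 it was 0.000203 with budesonide and 1.97e-08 with the combination, also with a rise at 1 and 2 h. For HSPH1 it was 6.1e-05 with budesonide and 1.73e-05 with the combination, and for CHORDC1 0.0189 and 0.0212, with falls at 6 and 18 h. The effect of formoterol on DNAJB1 at 2 h differed with and without budesonide (interaction 0.44 ± 0.10, adjusted p = 0.02, limma). No array stood apart from its group in the 19 gene and group pairs tested for outlying arrays.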

How the results depend on the processing

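No call changed direction in any alternative. Of 53 calls against untreated cells or for the interaction, 24 passed in every alternative, as did 19 of 37 calls of the combination against each drug and 0 of 11 calls in untreated cells over time. The number of arrays limits the precision. Leaving out genes of low level moved no count by over 1.5 times. Rescaling moved the median gene by at most 0.0423. The causes of the changes below were not tested, and the shares of all genes given above are those of the fit without a block. With the replicate block the counts of called members became 16, 5 and 7 for the time test of budesonide, the time test of formoterol and untreated 6 h against 1 h, 2 for formoterol at 6 h, 14 for the combination at 18 h, 1 and 2 for the interaction at 1 and 2 h, and 11 for combination against formoterol at 18 h. With the replicate block within each time they were 19, 9 and 21 for the time tests of budesonide, formoterol and the combination, 2 and 18 for budesonide at 1 and 18 h, 2, 5, 9 and 2 for formoterol at 1, 2, 6 and 18 h, 17 for the combination at 18 h, 2, 2 and 1 for the interaction at 1, 2 and 18 h, 2, 8 and 2 for combination against budesonide at 1, 2 and 18 h, and 14 for combination against formoterol at 18 h. The block ended no call. The untreated contrasts over time could not be fitted with the block within each time. With arrays centred on their medians the count was 0 for formoterol at 1 h, combination against budesonide at 18 h and untreated 18 h against 1 h. With quantile normalization it was 0 for formoterol at 1 h and combination against budesonide at 18 h, and 1 for formoterol at 6 h and the interaction at 1 h. With all probe sets averaged it was 1 for the time test of formoterol, 0 for formoterol at 18 h, 2 and 0 for combination against budesonide at 2 and 18 h, and 0 and 2 for untreated 18 h against 1 h and 6 h against 2 h. With only the compared arrays it was 1 and 6 for budesonide at 2 and 6 h, 1 and 0 for formoterol at 2 and 18 h, 4 for the combination at 6 h, 0 for the interaction at 2 h, 1 and 0 for combination against budesonide at 2 and 18 h, and 0, 1 and 0 for untreated 18 h against 1 h, 6 h against 1 h and 6 h against 2 h. Without all replicate 1 arrays it was 5 for the time test of budesonide, 1 for budesonide at 2 h, 0 for the interaction at 2 h, 1 and 0 for combination against budesonide at 2 and 18 h, and 0, 2 and 2 for the same untreated contrasts. Without the array of highest actin difference in each group, an alternative added after seeing the data, it was 2 and 0 for combination against budesonide at 2 and 18 h, and 0 and 0 for untreated 18 h against 1 h and 6 h against 2 h. Leaving out 1 array at a time gave 7 to 11, 2 to 3 and 9 to 12 for the time tests of budesonide, formoterol and the combination. For budesonide at 1, 2, 6 and 18 h it gave 1 to 1, 1 to 4, 8 to 11 and 9 to 11, for formoterol 0 to 1, 2 to 3, 0 to 1 and 0 to 2, and for the combination 2 to 2, 3 to 3, 5 to 8 and 6 to 11. For the interaction it gave 0 to 1, 0 to 1, 0 to 0 and 0 to 0, for combination against budesonide 1 to 1, 1 to 3, 7 to 9 and 0 to 1, and for combination against formoterol 3 to 3, 3 to 3, 6 to 8 and 4 to 7. For untreated 18 h against 1 h it gave 0 to 1, for 2 h against 1 h 0 to 0, for 6 h against 1 h 1 to 5 and for 6 h against 2 h 1 to 6.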
